A study of Mus musculus with 8 samples.

Results

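The growth plate cartilage genes described here are 7 genes, Sox9, Fgfr3, Col10a1, Col9a1, Hapln1, Hapln4 and Otor, found by exact gene name among 49868 named loci of the deposited table. Each of the 7 names stands on 1 locus. The genes were picked because earlier results of the same 8 libraries had them lower in cells without hyaluronan synthases, so their differences between genotypes are given as a description and carry no test.

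Growth plate cartilage is the layer of chondrocytes that lengthens long bones. Its cells divide in columns, enlarge to hypertrophic cells and are replaced by bone, and the matrix around them holds fibrils of type II, IX and XI collagen and large aggregates in which link proteins fasten proteoglycans to chains of hyaluronan. The transcription factor Sox9 switches on most genes of that matrix, and the receptor Fgfr3 restrains growth of the plate.

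The libraries came from mesenchymal stem cells (MSc) of mouse femurs and tibiae, 4 Has-tKO and 4 wildtype, 1 library per mouse. Has-tKO cells lack Has1 and Has3 by constitutive knockout and Has2 by a Cre recombination that 4-hydroxytamoxifen induces, and together these enzymes make all hyaluronan. Wildtype cells came from C57Bl6/J mice and received the same 4-hydroxytamoxifen for 48 h in passages 2 and 3 of 4, and all cells were taken on day 7 of osteogenic culture. The promoter that drives Cre, the strain of the Has-tKO mice and the age of the animals do not appear in the labels. The study asked how the loss of hyaluronan synthesis bears on bone formation by these cells.

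Values are FPKM (fragments per kilobase of transcript, relative to all mapped fragments of the library), and the sequencing depth behind them is unknown. The library wildtype 1 stood apart, with a median-ratio size factor of 0.684, against 0.990 to 1.11 in the other 7 libraries, and with a single locus that held 30.4% of its FPKM, against 14.2% to 18.6% in the others. Loci without a gene name held 61.5% of the FPKM of wildtype 1 and 56.4% of that of Has-tKO 4, against 45.4% to 48.7% in the other 6 libraries, and some results are therefore also given without these 2 libraries. Scaled values, divided by these factors, are given beside the deposited ones. Over all 9916 tested genes the median log2 fold change (Has-tKO minus wildtype, of FPKM + 1) was 0.16 as deposited and 0.01 after scaling. Of the targeted genes, Has3 averaged 0.503 ± 0.238 FPKM in Has-tKO and 0.378 ± 0.0995 FPKM in wildtype (SD, n = 4 each), levels too low for the test and, since the labels do not say which part is deleted, no check of them. Has1 and Has2 were not analysed here.

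Markers of cartilage, bone and stroma were present together. Col2a1, the main collagen of cartilage, lay between 129 and 200 FPKM in Has-tKO libraries and between 109.8 and 254 FPKM in wildtype libraries. Other cartilage genes were not all present. Of 15 named genes in a list of other cartilage matrix and secreted proteins, 9 reached 1 FPKM in 4 or more libraries. Among the rest, Matn1 was at most 0.289, Snorc at most 0.368 and Chad at most 0.860 FPKM in any library. Acan carried no name in the table and was not analysed here. Of the osteoblast markers, Ibsp averaged 147 ± 22.6 FPKM in Has-tKO and 296 ± 97.9 FPKM in wildtype (SD, n = 4 each), and of the stromal markers Cxcl12 averaged 223 ± 46.6 FPKM in Has-tKO and 223 ± 80.2 FPKM in wildtype.

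Summed markers of macrophages and of smooth muscle were higher in every Has-tKO library than in any wildtype library, on both scales. The same held for endothelial markers, whose deposited sums were at most 1.11 FPKM. All marker lists were chosen with earlier results of these data known, so their sums, counts and tests are a description. How often sums of other genes part in this way was not computed. All 10 macrophage and myeloid markers named in the table had a higher mean in Has-tKO, and their summed level was 352 to 518 FPKM in Has-tKO and 175 to 324 FPKM in wildtype. After scaling the sum was 322 to 499 FPKM in Has-tKO and 195 to 309 FPKM in wildtype. At an unadjusted limma p under 0.05 all 10 were higher as deposited and 9 after scaling, where 14.4% and 10.7% of all tested genes were. In the limma test over all genes, which called 1.58% of them higher, 1 of these 10 rose, Cx3cr1, with 6.15 ± 1.16 FPKM in Has-tKO and 1.99 ± 1.23 FPKM in wildtype (SD, n = 4 each; log2 fold change 1.35, SE 0.28, adjusted p = 0.0371). When 1 library was left out, 0 to 7 of the 10 passed, with 7 when it was wildtype 3. The highest of them, the growth factor receptor Csf1r, averaged 95.0 ± 21.2 FPKM in Has-tKO and 48.8 ± 18.7 FPKM in wildtype and did not pass (0.99, limma adjusted p = 0.0716). The 5 smooth muscle markers summed to 158 to 286 FPKM in Has-tKO and 67.6 to 145 FPKM in wildtype, and after scaling to 146 FPKM or more in Has-tKO and 95.6 to 134 FPKM in wildtype. Of 4 tested, 3 were higher at an unadjusted limma p under 0.05 on both scales. After adjustment 2 rose, Tagln (1.25, SE 0.19, limma adjusted p = 0.0136) and Actg2 (1.44, SE 0.29, adjusted p = 0.0333). The actin Acta2, the highest of them, averaged 167 ± 46.5 FPKM in Has-tKO and 91.3 ± 31.4 FPKM in wildtype (0.90, limma adjusted p = 0.118).

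The 7 osteoblast markers summed to 277 to 347 FPKM in Has-tKO and 316 to 619 FPKM in wildtype, and the 6 joint markers, led by Prg4, to 30.1 to 39.3 FPKM in Has-tKO and 33.7 to 52.6 FPKM in wildtype. Both overlapped as deposited but not after scaling, with osteoblast sums of 256 to 314 FPKM in Has-tKO and 461 to 625 FPKM in wildtype, and joint sums of 29.0 to 35.9 FPKM in Has-tKO and 45.2 to 53.1 FPKM in wildtype. The markers did not all move with their sum. A higher mean in Has-tKO was found for 2 of the 7 osteoblast markers as deposited and 1 after scaling. It was found for 3 of the 6 joint markers on both scales. Of the osteoblast markers Dmp1 averaged 9.20 ± 3.63 FPKM in Has-tKO and 5.47 ± 1.64 FPKM in wildtype. Ifitm5 averaged 84.5 ± 15.8 FPKM in Has-tKO and 80.3 ± 14.6 FPKM in wildtype. In the osteoblast list 1 marker was higher and 2 lower at an unadjusted limma p under 0.05 as deposited. Over all tested genes 14.4% were higher and 2.3% lower. After scaling 0 were higher and 3 lower, against 10.7% and 7.77% of all tested genes. The sums of 3 other lists overlapped on both scales. Stromal markers summed to 336 to 398 FPKM in Has-tKO and 212 to 425 FPKM in wildtype, and tendon markers to 277 to 392 FPKM in Has-tKO and 256 to 351 FPKM in wildtype. Of the tendon and fibroblast list the early response factor Egr1, which many cells induce, rose, with 8.07 ± 0.825 FPKM in Has-tKO and 1.93 ± 0.866 FPKM in wildtype (1.68, SE 0.22, limma adjusted p = 0.00633), and its highest member, Thbs4, averaged 299 ± 53.7 FPKM in Has-tKO and 284 ± 45.2 FPKM in wildtype (0.07, adjusted p = 0.859). The 6 adipocyte markers summed to 15.8 to 20.1 FPKM in Has-tKO and 10.1 to 17.9 FPKM in wildtype, with Lpl highest (0.24, limma adjusted p = 0.592). The 5 endothelial markers, among them Cdh5, summed to 0.528 to 1.11 FPKM in Has-tKO and 0.173 to 0.483 FPKM in wildtype. Their sums did not overlap after scaling either, but none of the 5 passed the filter on low values. Cx3cr1, Tagln, Actg2 and Egr1 passed after scaling too. With a pseudocount of 0.1 only Tagln and Egr1 of these passed, and without the filter on low values none of them did. Egr1 passed in every fit that left out 1 library. Tagln did not pass without Has-tKO 1 or without wildtype 4. Actg2 failed in these fits and also without Has-tKO 2 or Has-tKO 3. Of the fits that left out 1 library, Cx3cr1 passed only in those without wildtype 1, wildtype 2 or wildtype 3. Without wildtype 1 and Has-tKO 4 together, Cx3cr1 passed as deposited but not after scaling. No named marker was at 0 in all 8 libraries. In bulk RNA, fewer cells of a type and less RNA per cell cannot be told apart, and the part of these shifts in the values below was not tested.

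All 7 genes had a lower mean in Has-tKO, at 43.5% (Col10a1) to 53.2% (Sox9) of the wildtype mean as deposited, and at 37.3% (Col10a1) to 47.6% (Sox9) after scaling. All 7 passed the filter on low values. In 4 of them, Fgfr3, Col10a1, Col9a1 and Otor, every Has-tKO library lay below every wildtype library, and 1.53% of all tested genes have such groups in this direction. After scaling this held for 6 of the 7, all but Hapln1, against a background of 5.76%. Since the genes were chosen on this contrast, nothing is read from these counts. The median log2 fold change of the 7 was -0.89 as deposited and -1.05 after scaling.

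**Figure D1:**
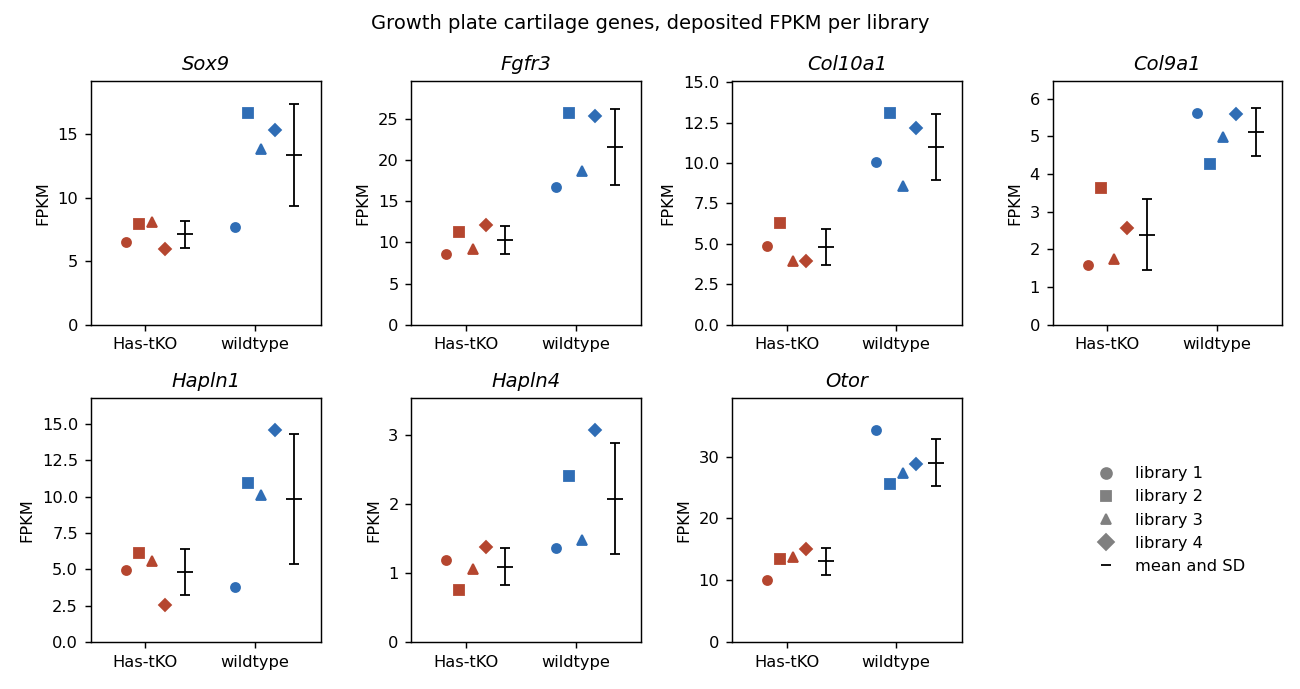
Deposited FPKM of the 7 genes in each library, Has-tKO left and wildtype right in each panel, with 1 symbol per library and the mean and SD of 4 libraries as a black bar. Otor and Fgfr3 have the highest levels, and the wildtype 1 circle lies near the Has-tKO points for Sox9, Hapln1 and Hapln4 but not for Otor or Col9a1.

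Sox9 binds DNA through an HMG box and is needed at nearly every step of cartilage formation. It lay at 6.49, 7.89, 8.08 and 5.97 FPKM in the 4 Has-tKO libraries, against 7.65, 16.7, 13.8 and 15.3 FPKM in the 4 wildtype libraries. The groups overlapped through wildtype 1, which was lower than 2 of the Has-tKO libraries, and after scaling wildtype 1 stood at 11.2 FPKM, above the highest Has-tKO library at 7.39 FPKM. The log2 fold change was -0.78 (SE 0.22), and -0.96 (SE 0.13) after scaling. No named gene overlaps Sox9 in the GENCODE M21 annotation.

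Fgfr3 is a receptor tyrosine kinase of proliferating and prehypertrophic chondrocytes, and activating mutations of it cause achondroplasia in humans. Its level was 8.58, 11.3, 9.25 and 12.1 FPKM in Has-tKO libraries, against 16.7, 25.8, 18.7 and 25.4 FPKM in wildtype libraries. The groups did not overlap on either scale. On the log2 scale the difference was -0.99 (SE 0.19), and -1.18 (SE 0.15) after scaling.

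Col10a1 encodes type X collagen, made by hypertrophic chondrocytes and hardly by other cells. Has-tKO libraries held 4.90, 6.32, 3.95 and 3.96 FPKM and wildtype libraries 10.1, 13.1, 8.60 and 12.2 FPKM. The highest Has-tKO library stayed under the lowest wildtype library. This gave a log2 fold change of -1.06 (SE 0.19), and -1.23 (SE 0.18) after scaling. Col10a1 lies within Nt5dc1, a gene of the opposite strand, and the library type does not record the strand. Nt5dc1 stood at 1.94 to 2.93 FPKM in Has-tKO and 0.815 to 1.89 FPKM in wildtype. Its groups did not overlap, with Has-tKO higher, which held for 12% of all tested genes. The part of Nt5dc1 reads in the Col10a1 values was not tested. Of the other 6 genes, Fgfr3 is overlapped by G630022F23Rik (at most 0.468 FPKM in any library) and Hapln1 by the pseudogene Gm8546 (at most 1.12 FPKM).

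Col9a1 encodes a chain of type IX collagen, which sits on the surface of type II collagen fibrils. It had 1.58, 3.64, 1.74 and 2.57 FPKM in Has-tKO libraries, against 5.63, 4.26, 4.99 and 5.59 FPKM in wildtype libraries. Has-tKO 2 came nearest to the wildtype libraries, and the groups did not overlap. The log2 fold change was -0.89 (SE 0.20), and -1.05 (SE 0.23) after scaling.

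Hapln1 is the link protein of cartilage, which binds both hyaluronan and aggrecan. Its level was 4.97, 6.12, 5.59 and 2.52 FPKM in Has-tKO libraries, against 3.77, 10.9, 10.1 and 14.6 FPKM in wildtype libraries. Wildtype 1 lay below 3 of the 4 Has-tKO libraries, and after scaling, at 5.50 FPKM, it was still just below Has-tKO 2 at 5.54 FPKM. Its log2 fold change was -0.83 (SE 0.34), and -0.99 (SE 0.28) after scaling, with the widest errors of the 7 genes on both scales.

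Hapln4 is a link protein known mainly from the hyaluronan nets around neurons. It had the lowest level of the set, 1.19, 0.750, 1.07 and 1.37 FPKM in Has-tKO libraries, against 1.37, 2.40, 1.47 and 3.08 FPKM in wildtype libraries. The highest Has-tKO library and the lowest wildtype library met at 1.37 FPKM. Its log2 fold change was -0.53 (SE 0.20), and -0.64 (SE 0.18) after scaling. At levels this close to the pseudocount of 1 that value understates the difference, and with a pseudocount of 0.1 it was -0.82. The Has-tKO mean was 52.6% of the wildtype mean. Hapln4 is on chromosome 8, as is the engineered Has3, and 36.8 Mb separate them in GRCm38. The other 6 genes share no chromosome with Has1, Has2 or Has3.

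Otor encodes otoraplin, a small secreted protein of the MIA family that was found in the inner ear and is made by cartilage cells. Has-tKO libraries held 10.0, 13.4, 13.7 and 15.0 FPKM and wildtype libraries 34.3, 25.6, 27.4 and 28.8 FPKM. The highest Has-tKO library was well under the lowest wildtype library. The log2 fold change was -1.10 (SE 0.17), and -1.30 (SE 0.23) after scaling.

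Promoter sequence was at hand in RefSeq (GRCm38.p6) for 5 of the 7 genes, in 7 windows, Col9a1 and Fgfr3 having a pair of start sites each. The 250 bases before each start site were searched on both strands for ACAAAG and AACAAT, the cores that SOX factors bind, for TGTGGT, the core of RUNX factors, which drive hypertrophy, and for TATAAA. Over all 32851 windows of that length, 16.5% hold ACAAAG, 9.42% AACAAT, 14% TGTGGT and 12.4% TATAAA. The 3 windows with a match are shown because they differ in which of these letters they carry, with the matches in capitals, all on the strand of the gene and none overlapping another.
Col10a1 (chr10:34389731-34389980, plus strand): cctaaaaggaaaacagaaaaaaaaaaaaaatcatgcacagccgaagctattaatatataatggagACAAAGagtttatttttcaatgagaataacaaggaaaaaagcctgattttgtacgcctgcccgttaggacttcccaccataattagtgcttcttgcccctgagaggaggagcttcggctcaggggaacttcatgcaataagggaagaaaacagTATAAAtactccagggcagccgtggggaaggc
Hapln1 (chr13:89540386-89540635, plus strand): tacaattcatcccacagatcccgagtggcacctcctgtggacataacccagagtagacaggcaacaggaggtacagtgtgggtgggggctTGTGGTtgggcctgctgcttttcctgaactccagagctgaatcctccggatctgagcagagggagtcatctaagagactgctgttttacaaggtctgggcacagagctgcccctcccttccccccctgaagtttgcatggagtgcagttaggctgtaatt
Otor (chr2:143078143-143078392, plus strand): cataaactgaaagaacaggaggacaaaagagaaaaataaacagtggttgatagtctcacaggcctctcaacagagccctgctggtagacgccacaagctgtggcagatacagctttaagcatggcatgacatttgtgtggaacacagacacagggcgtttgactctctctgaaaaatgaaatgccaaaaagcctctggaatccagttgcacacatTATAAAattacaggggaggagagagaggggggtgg
In Col10a1 the SOX core begins 185 bases and TATAAA 32 bases before the start site, in Otor TATAAA begins 35 bases before it, and in Hapln1 the RUNX core begins 160 bases before it. The other 4 windows, of Col9a1 and Fgfr3, held none of the 4 motifs. The windows differed in base composition, with 66.8% and 72.8% G and C in those of Fgfr3 and 41.6% in that of Col10a1, where the median of all windows was 52.4%. A match describes the letters and shows no binding. The start sites of Col9a1 lie 17593 bases apart. Its deposited level is a single value, and which of the start sites it covers is not known, so the long and short forms could not be told apart.

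The order of the 7 levels was much the same in every library. Otor ranked highest in 7 of 8 libraries, Fgfr3 being above it in wildtype 2, and Hapln4 ranked lowest in all 8. In Has-tKO the ranges of Otor (10.0 to 15.0 FPKM) and Fgfr3 (8.58 to 12.1 FPKM) overlapped, Sox9 (5.97 to 8.08 FPKM) lay wholly below Fgfr3, and Col10a1 (3.95 to 6.32 FPKM) overlapped both Sox9 and Hapln1 (2.52 to 6.12 FPKM). In wildtype, Sox9, Col10a1 and Hapln1 could not be ordered beyond their spread. Col9a1 lay above Hapln4 without overlap in both genotypes.

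The libraries of 1 genotype did not vary alike in all 7 genes. After scaling, wildtype 1 had the highest wildtype level of Otor (50.2 FPKM, against 23.7 to 29.1 in the other wildtype libraries), of Col10a1 (14.8) and of Col9a1 (8.22), and the lowest of Hapln1 (5.50) and Sox9 (11.2). The coefficient of variation of Otor in wildtype was 12.9% as deposited and 37.5% after scaling, while that of Sox9 was 29.8% as deposited and 14.8% after scaling. In Has-tKO, library 1 was lowest for Otor, Fgfr3 and Col9a1, library 4 was lowest for Sox9 and Hapln1, and Hapln4 was highest in library 4.

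**Figure D2:**
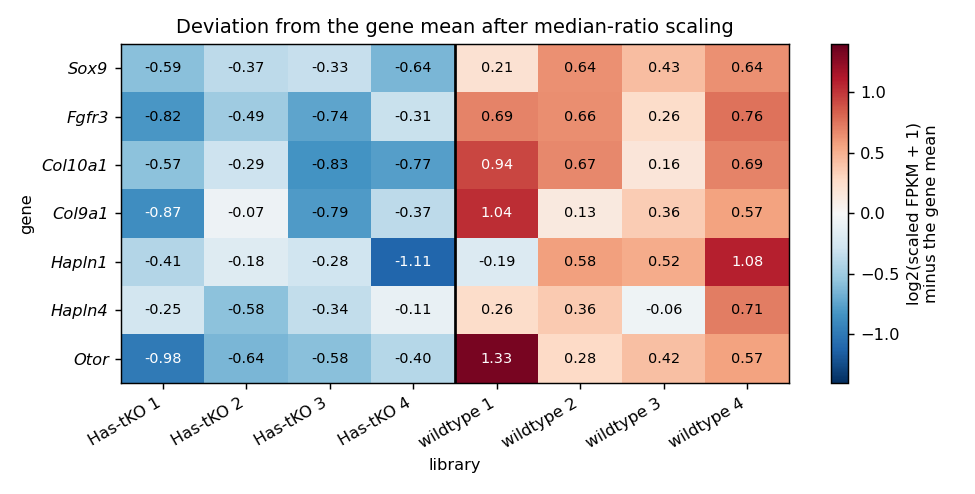
Deviation of each gene (rows) in each library (columns) from its own mean over the 8 libraries, as log2(scaled FPKM + 1), Has-tKO left of the line and wildtype right of it. All Has-tKO values are below 0, and 2 wildtype values are too, Hapln1 in wildtype 1 (-0.19) and Hapln4 in wildtype 3 (-0.06).

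Likeness to other genes was measured as the root mean square difference between centred log2(scaled FPKM + 1) values over the 8 libraries, which contain the difference between genotypes. Among the 7 genes the most alike were Col10a1 and Fgfr3 (0.22) and then Col9a1 and Otor (0.25), and the least alike were Hapln1 and Otor (0.69). The nearest of the 9916 tested genes to Sox9 were Srpx2 (0.12), a secreted sushi-repeat protein, Tent5a (0.13), a poly(A) polymerase, and Bmper (0.13), a BMP-binding protein. Fgfr3 was nearest to Ppp1r3c (0.10), a glycogen-targeting phosphatase subunit, with 9.21 ± 1.35 FPKM in Has-tKO and 19.5 ± 4.88 FPKM in wildtype, and then to the kinase Nuak1 (0.18) and Susd5 (0.18). Otor was nearest to the secreted serine protease Htra1 (0.14), at 16.9 ± 2.50 FPKM in Has-tKO and 34.1 ± 6.12 FPKM in wildtype, then to the retinol carrier Rbp4 (0.22) and the circadian factor Dbp (0.25).

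Col10a1 was nearest to the lipoprotein receptor Vldlr (0.21), the acyl-CoA thioesterase Acot2 (0.22) and Fgfr3 itself. Col9a1 was nearest to Isoc2b (0.21), the sulfotransferase Chst2 (0.23) and Otor. Hapln4 was nearest to the linker histone H1f0 (0.14), the proline synthesis enzyme Pycr1 (0.16) and the orphan receptor Gprc5c (0.18), and Hapln1 to Lyplal1 (0.20), Gm45540 (0.24) and the ecto-nucleotidase Nt5e (0.25).

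The surrounding cartilage programme was followed in 9 lists of 118 genes without the 7, of which 92 had a name in the table and 62 passed the filter. In the limma test over all 9916 genes (Benjamini-Hochberg adjusted p under 0.05), 1 of these 62 rose (1.61%) and 0 fell, where 1.58% of all tested genes were called higher and 0.192% lower in Has-tKO. After scaling 1 rose and 5 fell (8.06%), where 1.73% of all tested genes were called higher and 1.09% lower. At an unadjusted p under 0.05, 7 of the 62 were higher and 10 lower as deposited, where 14.4% of all tested genes were higher and 2.3% lower. After scaling 6 were higher and 18 lower at that p, where 10.7% of all tested genes were higher and 7.77% lower. The lists were drawn up with earlier results of these data known, so nothing is read from these shares.

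**Figure D3:**
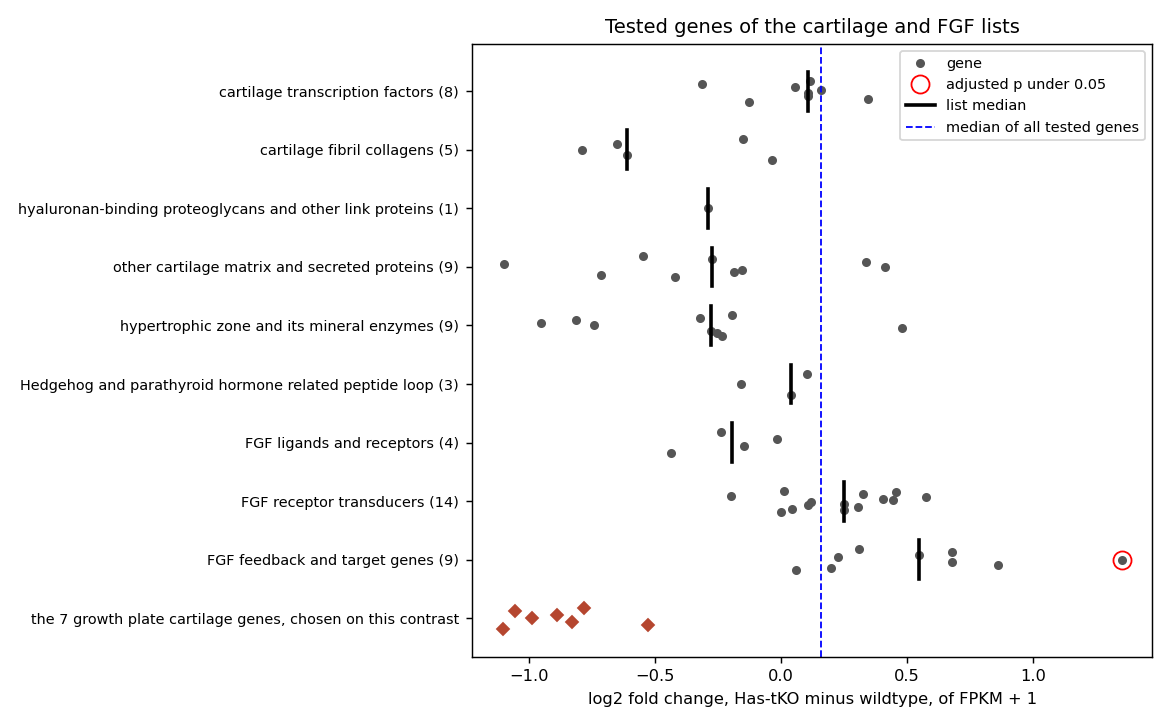
Log2 fold change (Has-tKO minus wildtype, of deposited FPKM + 1) of each tested gene in the 9 lists, with the number tested in brackets, the list median as a black bar, the median of all tested genes (0.16) as a dashed line and a red ring around the gene that passed, Dusp6. The diamonds are the 7 growth plate cartilage genes, which were chosen on this contrast.

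The fibril collagens beside Col9a1 were lower on average without passing the test. Of 5 tested none was called, 3 were lower at an unadjusted p under 0.05, and their median log2 fold change was -0.61 as deposited, against 0.16 over all tested genes, and -0.81 after scaling, against 0.01. The median was -0.35 without wildtype 1 and Has-tKO 4, against 0.07 over all tested genes. Col11a1 passed when wildtype 3 was left out. Col2a1 had 200.4, 158, 148 and 129 FPKM in Has-tKO libraries, against 254, 109.8, 141 and 234 FPKM in wildtype libraries. These groups overlapped widely, and the log2 fold change was -0.15 (SE 0.26, limma adjusted p = 0.798), and -0.36 (adjusted p = 0.641) after scaling.

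The partner chains of Col9a1 in the type IX trimer were Col9a2, with 4.79, 4.13, 3.99 and 2.78 FPKM in Has-tKO, against 10.1, 6.46, 4.67 and 6.20 FPKM in wildtype, and Col9a3, with 3.40 ± 0.729 FPKM in Has-tKO and 6.98 ± 3.34 FPKM in wildtype. Only wildtype 3 reached into the Has-tKO range of Col9a2, and the groups of Col9a3 did not overlap. The log2 fold changes were -0.65 (SE 0.22, limma adjusted p = 0.149) for Col9a2 and -0.79 (SE 0.25, adjusted p = 0.130) for Col9a3, and after scaling -0.83 (adjusted p = 0.166) and -0.97 (adjusted p = 0.179). Col11a1, a chain of the fibril core, averaged 14.4 ± 1.20 FPKM in Has-tKO and 22.8 ± 4.40 FPKM in wildtype (-0.61, limma adjusted p = 0.0924), and Col27a1 averaged 6.02 ± 0.496 FPKM in Has-tKO and 6.27 ± 1.23 FPKM in wildtype (-0.04, adjusted p = 0.927). A difference in response between the type IX chains and Col2a1 was not tested.

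Set against Col2a1 within each library, Otor stood at 11.6% of the Col2a1 level or less in Has-tKO and at 12.3% to 23.3% in wildtype. It was the only gene of the 7 whose groups did not overlap in this ratio. The 7 were chosen on this contrast and the share over all genes was not computed, so nothing is read from this. Fgfr3 stood at 4.28% to 9.41% in Has-tKO and 6.57% to 23.5% in wildtype. Col10a1 stood at 2.44% to 3.99% in Has-tKO and 3.97% to 11.9% in wildtype, and Sox9 at 3.24% to 5.46% in Has-tKO and 3.01% to 15.2% in wildtype. The low ends of the wildtype ranges of Col10a1 and Sox9 belonged to wildtype 1, which had the highest Col2a1.

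**Figure D4:**
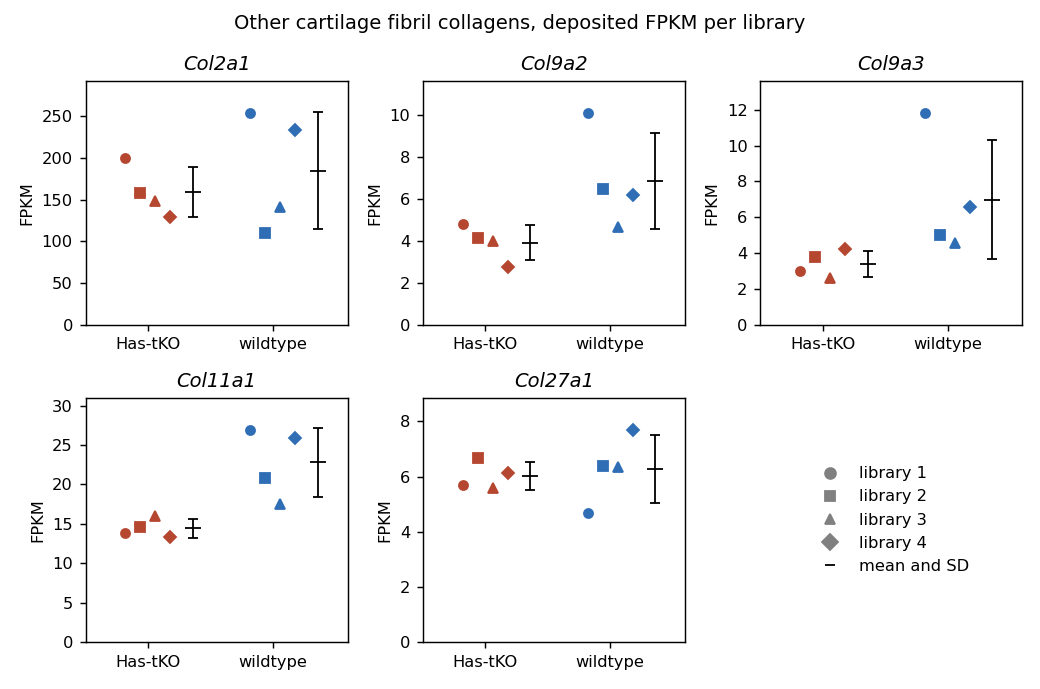
Deposited FPKM of 5 other collagens of the cartilage fibril in each library, Has-tKO left and wildtype right, with the mean and SD of 4 libraries. Col2a1 and Col27a1 overlap between genotypes, while Col9a3 and Col11a1 do not.

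Among the transcription factors that work with Sox9 or take over from it, 8 were tested and none passed on either scale (0 at an unadjusted p under 0.05 as deposited and 1, lower, after scaling). Runx2, which drives hypertrophy and bone formation, averaged 4.47 ± 0.731 FPKM in Has-tKO and 5.95 ± 1.82 FPKM in wildtype (log2 fold change -0.31, SE 0.22, limma adjusted p = 0.489). Wwp2, a ubiquitin ligase whose gene hosts a Sox9-dependent microRNA, averaged 15.2 ± 0.873 FPKM in Has-tKO and 14.3 ± 3.42 FPKM in wildtype (0.11, adjusted p = 0.803). Arid5b, a chromatin cofactor of Sox9, averaged 8.94 ± 1.02 FPKM in Has-tKO and 7.01 ± 2.02 FPKM in wildtype (0.35, adjusted p = 0.425), and Zbtb20 averaged 7.78 ± 2.59 FPKM in Has-tKO and 9.00 ± 3.75 FPKM in wildtype (-0.13, adjusted p = 0.868).

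Of the proteoglycans and link proteins that bind hyaluronan, 4 of 6 besides Hapln1 and Hapln4 had a name and 1 passed the filter. This was Bcan, a proteoglycan of brain, at 1.65 ± 1.09 FPKM in Has-tKO and 2.10 ± 0.557 FPKM in wildtype (-0.29, limma adjusted p = 0.575). Without Has-tKO 4, the highest library, its log2 fold change was -0.54 (SE 0.18, adjusted p = 0.209, unadjusted p = 0.0116). Hapln3 lay between 0.406 and 0.684 FPKM in Has-tKO and between 0.365 and 1.07 FPKM in wildtype, and Hapln2 was listed at 0 in 7 of 8 libraries. Hapln1 thus had the highest level of the 4 link proteins in all 8 libraries.

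Of 9 other tested cartilage matrix and secreted proteins none was called as deposited (3 lower and 1 higher at an unadjusted p under 0.05), and 2 fell after scaling. These were Susd5 (16.6 ± 3.09 FPKM in Has-tKO and 28.3 ± 7.67 FPKM in wildtype, -0.72 with limma adjusted p = 0.106, and -0.91 with adjusted p = 0.0430 after scaling) and the sulfate transporter Slc26a2 (4.34 ± 0.475 FPKM in Has-tKO and 6.34 ± 1.85 FPKM in wildtype, -0.42 with adjusted p = 0.322, and -0.59 with adjusted p = 0.0339 after scaling). Slc26a2 also passed in 1 of the 8 unscaled fits that left out 1 library, the fit without wildtype 1, and its limma adjusted p reached 0.532 over the 8. Susd5 passed in 0 of the 8 unscaled fits that left out 1 library, and without wildtype 1 and Has-tKO 4 its limma adjusted p was 0.0537 as deposited and 0.0615 after scaling. Papss2, which makes the sulfate donor of proteoglycans, averaged 6.86 ± 1.10 FPKM in Has-tKO and 7.99 ± 1.56 FPKM in wildtype (-0.19, adjusted p = 0.619). Cnmd, the cartilage inhibitor of vessel growth chondromodulin, had 6.13, 21.3, 15.9 and 24.0 FPKM in Has-tKO, against 27.2, 42.8, 29.5 and 36.3 FPKM in wildtype. Its groups did not overlap, but Has-tKO 1 was far below the other Has-tKO libraries, and the log2 fold change of -1.10 (SE 0.34) did not pass (adjusted p = 0.118, and 0.0841 after scaling). Mia2, a member of the same family as Otor, averaged 1.95 ± 0.0414 FPKM in Has-tKO and 1.24 ± 0.399 FPKM in wildtype (0.41, adjusted p = 0.230).

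Of 9 tested genes that hypertrophic chondrocytes share with osteoblasts none passed as deposited (3 lower at an unadjusted p under 0.05) and 3 fell after scaling, the phosphatase Alpl, the bone sialoprotein Ibsp and the channel protein Panx3. Alpl averaged 67.4 ± 12.8 FPKM in Has-tKO and 121 ± 29.3 FPKM in wildtype (-0.82 with limma adjusted p = 0.0826, and -1.02 with adjusted p = 0.0154 after scaling), and Ibsp, at the levels given above, had -0.95 with adjusted p = 0.0718, and -1.16 with adjusted p = 0.0177 after scaling. Panx3 averaged 2.94 ± 0.437 FPKM in Has-tKO and 5.74 ± 1.78 FPKM in wildtype (-0.74 with limma adjusted p = 0.0861, and -0.90 with adjusted p = 0.0208 after scaling). Each of these 3 passed in 1 of the 8 unscaled fits that left out 1 library, the fit without wildtype 1. Over the 8 fits the limma adjusted p reached 0.278 for Alpl, 0.250 for Ibsp and 0.285 for Panx3. The collagenase Mmp13 averaged 124 ± 16.1 FPKM in Has-tKO and 152 ± 58.2 FPKM in wildtype (-0.20, adjusted p = 0.761), and Mgp, an inhibitor of mineralization, 129 ± 19.1 FPKM in Has-tKO and 152 ± 21.3 FPKM in wildtype (-0.23, adjusted p = 0.503). In the Hedgehog and parathyroid hormone related peptide loop, which times hypertrophy, Ihh reached at most 0.306 FPKM in any library and Pthlh was listed at 0 in all 8. Of its 3 tested genes none passed (0 at an unadjusted p under 0.05), among them Gli3 with 5.28 ± 1.62 FPKM in Has-tKO and 5.41 ± 2.48 FPKM in wildtype (0.04, limma adjusted p = 0.958), the Hedgehog inhibitor Sufu (0.10, adjusted p = 0.782) and the kinesin Kif7 (-0.16, adjusted p = 0.733).

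Fgfr3 was followed through its pathway. Of the FGF ligands and receptors beside it 4 were tested and none passed (1 lower at an unadjusted p under 0.05 as deposited and 3 after scaling). Fgfr1, the named FGF receptor with the highest mean in both genotypes, had 24.3, 30.2, 25.8 and 23.0 FPKM in Has-tKO, against 26.8, 34.7, 28.3 and 32.8 FPKM in wildtype (log2 fold change -0.24, SE 0.16, limma adjusted p = 0.470, and -0.44 with adjusted p = 0.112 after scaling). The decoy receptor Fgfrl1 averaged 23.5 ± 2.84 FPKM in Has-tKO and 24.5 ± 7.01 FPKM in wildtype (-0.02, adjusted p = 0.974). The heparan sulfate proteoglycan Gpc1, a co-receptor, averaged 54.5 ± 6.34 FPKM in Has-tKO and 75.1 ± 17.1 FPKM in wildtype (-0.44, limma adjusted p = 0.262, and -0.64 with adjusted p = 0.0551 after scaling). The proteoglycan Sdc3 averaged 125 ± 15.2 FPKM in Has-tKO and 140 ± 27.6 FPKM in wildtype (-0.15, limma adjusted p = 0.720). Fgf18, a ligand of Fgfr3 in the growth plate, was at most 1.05 FPKM in any library, and Fgf9 was listed at 0 in all 8. None of 14 transducers passed on either scale (2 higher at an unadjusted p under 0.05 as deposited, and 1 higher and 1 lower after scaling). The kinase Mapk3, for one, averaged 41.2 ± 3.03 FPKM in Has-tKO and 40.2 ± 5.62 FPKM in wildtype (0.04, limma adjusted p = 0.912). The values of Map2k1 (0.25, adjusted p = 0.516), Stat3 (0.25, adjusted p = 0.563) and Map2k2 (0.11, adjusted p = 0.753) came from the same limma test.

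The feedback and target genes of FGF receptors, which other growth factor receptors that signal through ERK induce too, were followed as well. Of 9 tested 1 rose and none fell, and 4 were higher at an unadjusted limma p under 0.05. Their median log2 fold change was 0.55 as deposited, against 0.16 over all tested genes, and 0.36 after scaling, against 0.01. The median was 0.23 when wildtype 1 was left out, against 0.04 over all tested genes. Dusp6, the phosphatase that switches off ERK, had 22.5, 17.9, 12.4 and 19.4 FPKM in Has-tKO, against 3.91, 6.79, 9.62 and 6.03 FPKM in wildtype. Its groups did not overlap, which held for 12% of all tested genes in this direction (7.18% after scaling), and the log2 fold change was 1.35 (SE 0.25, limma adjusted p = 0.0226, and 1.17 with adjusted p = 0.0212 after scaling). Dusp6 passed in 4 of the 8 fits that left out 1 library, with adjusted p between 0.0129 and 0.112, and not without Has-tKO 1, Has-tKO 2, Has-tKO 4 or wildtype 4. Cdkn1a, the cell cycle inhibitor p21 and the list's gene of highest mean, averaged 68.3 ± 9.60 FPKM in Has-tKO and 59.0 ± 2.83 FPKM in wildtype (0.20, SE 0.15, limma adjusted p = 0.535, and -0.0039 with adjusted p = 0.993 after scaling).

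Etv5, an ETS factor induced by FGF signals, had 17.9, 19.2, 13.9 and 13.2 FPKM in Has-tKO, against 4.15, 11.0, 12.5 and 7.99 FPKM in wildtype, without overlap (0.86, SE 0.27, limma adjusted p = 0.130). The related Etv4 averaged 2.66 ± 1.02 FPKM in Has-tKO and 1.24 ± 0.514 FPKM in wildtype (0.68, adjusted p = 0.185), and the inhibitor Spry4 2.32 ± 0.660 FPKM in Has-tKO and 1.06 ± 0.354 FPKM in wildtype (0.68, adjusted p = 0.104). Etv4 and Spry4 were chosen after their values were seen. Spred1, an inhibitor of ERK signalling, averaged 19.8 ± 2.95 FPKM in Has-tKO and 14.2 ± 5.85 FPKM in wildtype (0.55, limma adjusted p = 0.360). The other 3 tested members were the inhibitors Spry1 (0.31, limma adjusted p = 0.540) and Spred2 (0.23, adjusted p = 0.499, and 0.06 after scaling) and the repressor Snai1 (0.06, adjusted p = 0.895, and -0.11 after scaling). Without wildtype 1 and Has-tKO 4, Dusp6, Etv4 and Spry4 passed as deposited, and Etv4 and Spry4 after scaling. The omitted Has-tKO 4 was the lowest Has-tKO library of Etv4 (1.13 FPKM) and of Spry4 (1.34 FPKM), within the wildtype range of both.

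**Figure D5:**
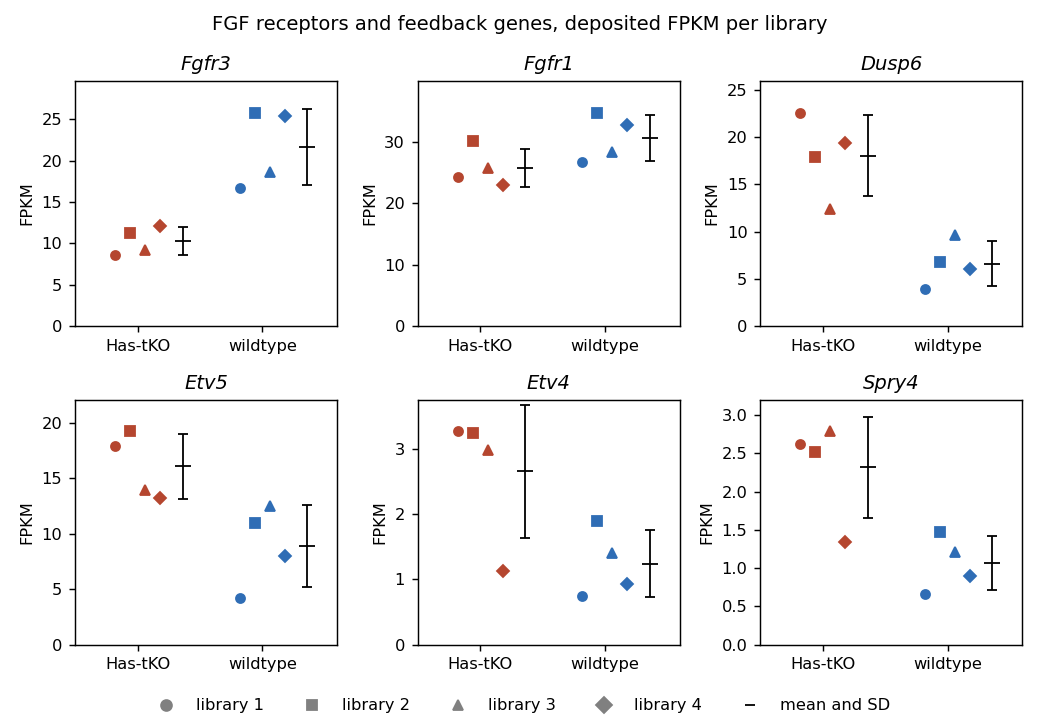
Deposited FPKM of 2 FGF receptors and 4 feedback or target genes in each library, Has-tKO left and wildtype right, with the mean and SD of 4 libraries. Fgfr3 is lower in all Has-tKO libraries while Dusp6 and Etv5 are higher in all of them, and Fgfr1 overlaps between the genotypes.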

How the data were processed

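RNA of 8 MSc cultures was depleted of ribosomal RNA (100 ng each) and made into Nextera libraries, which do not record the strand, per the labels' protocols. The authors deposited FPKM values for 76557 loci, per the file headers; the submitters' processing notes name 2 builds, GRCm39 and hg38, and bcl2fastq, fastp, HISAT2, StringTie and DESeq2 as tools. Versions, options and the combining of transcripts were not given in the sources used here. Columns were matched to libraries by header name, and the 26689 loci without a gene name were left out. Where a name stood on several loci (67 names), the one of highest mean was used.

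No whole-read steps were recovered from low values: among loci under 0.3 FPKM in both libraries of a pair, no bin of ratios 0.02 wide on the log2 scale held more than 1.27% of loci. Depth is therefore unknown, columns sum to 198221 to 259871 FPKM, and no counting error is given.

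Genotypes were compared with limma 3.58.1 (R 4.3.3, intensity trend, two-sided) on log2(FPKM + 1), for named loci that reached 1 FPKM in 4 or more libraries, with Benjamini-Hochberg adjustment over all of them. Size factors are median ratios over 7435 named loci with at least 1 FPKM in every library. Code was tested on simulated data. Alternatives were median-ratio scaling, a pseudocount of 0.1, no filter, a replicate block and left-out libraries.

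The 7 genes, the lists and the tests were chosen with earlier results of these data known. Named beside the 7 are, in each pathway list, called genes and up to 4 tested genes of highest mean. The top marker of each cell type and the 3 nearest profiles are named too. Col9a3, Panx3, Etv4, Spry4, Spry1, Snai1, Spred2, Matn3, Mia2, Nt5dc1, Fgf23, Dmp1 and Ifitm5 were chosen after their values were seen. So were the called markers Cx3cr1, Tagln, Actg2 and Egr1, and genes near 0 FPKM. Gene overlaps and chromosomes came from GENCODE M21 (GRCm38), used for neighbourhood only. P-values measure the spread between mice within this set of cultures.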

Additional observations from a re-analysis of the deposited data

Results flagged for a closer look

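Among 102 groups of 4 libraries, of the 51 genes made up of the 7, the list genes of highest mean, called list genes, top markers and 5 genes chosen after their values were seen, 4 held a library far from the other 3, where chance gives about 1 in 20. None of the 4 belongs to the 7 growth plate cartilage genes. Etv4 was lowest in Has-tKO 4, at 1.13 FPKM, with 2.98 to 3.27 FPKM in the other Has-tKO libraries. Bcan was highest in Has-tKO 4, at 3.26 FPKM, with 0.913 to 1.29 FPKM in the others. Sdc3, a heparan sulfate proteoglycan that binds FGF ligands, was lowest in wildtype 1, at 99.2 FPKM, with 150.0 to 157 FPKM in the other wildtype libraries. Thbs4, a tendon marker, was highest in Has-tKO 3, at 379 FPKM, with 265 to 279 FPKM in the others.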

How the results depend on the processing

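The log2 fold changes of the 7 genes stayed below 0 and moved by less than the spread between replicates under all alternatives run (median-ratio scaling, pseudocount 0.1, replicate block and left-out libraries). Without 1 library they ranged over -1.01 to -0.67 for Sox9, -1.10 to -0.90 for Fgfr3, -1.18 to -0.97 for Col10a1, -1.05 to -0.77 for Col9a1, -1.18 to -0.61 for Hapln1, -0.64 to -0.38 for Hapln4 and -1.17 to -0.99 for Otor. The count of higher genes over all tested was 157, against 96 with pseudocount 0.1, 2 without a filter, and 5 to 327 without 1 library, while without wildtype 1 and Has-tKO 4 together 2.59% of the genes tested were higher, against 1.58%. The count of lower genes was 19, against 108 after scaling, 0 without a filter, 94 without both of these libraries, 121 without both after scaling, and 0 to 98 without 1 library. In the 9 lists 1 gene was higher, against 0 without a filter, 3 without both libraries, 2 without both after scaling, and 0 to 1 without 1 library. In these lists 0 genes were lower, against 5 after scaling, 3 with the replicate block, 5 without both libraries on either scale, and 0 to 4 without 1 library. The cause of these shifts was not tested. The scaled fit without both was chosen after seeing the data. Same-numbered libraries of the genotypes share only a number: their deviations correlated at -0.12 to 0.31 across genes, and the replicate block gave Alpl, Ibsp and Cnmd as lower. Depth is unknown, so the precision of low levels is too.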

Other observations

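Fgf23, a hormone of bone cells that acts on the kidney through FGF receptors, had 0.884, 3.26, 0.951 and 3.19 FPKM in Has-tKO libraries, against 0, 0.398, 0.484 and 0.452 FPKM in wildtype libraries. It did not pass the filter on low values, so it was not tested, and it was picked because its groups did not overlap. Its Has-tKO libraries formed a lower pair (Has-tKO 1 and 3) and a higher pair (Has-tKO 2 and 4).

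Matn3, a cartilage matrix protein, had 0.385, 0.684, 0.781 and 1.85 FPKM in Has-tKO libraries, against 1.77, 1.44, 1.96 and 1.71 FPKM in wildtype libraries. Has-tKO 4 alone reached the wildtype range, and the log2 fold change was -0.55 (limma adjusted p = 0.212). Without wildtype 1 and Has-tKO 4 it passed, with -0.74 (limma adjusted p = 0.0381) as deposited and -0.76 (adjusted p = 0.0414) after scaling. Prg4, the lubricin of joint surfaces, averaged 19.5 FPKM in Has-tKO and 23.9 FPKM in wildtype (n = 4 each; -0.26, SE 0.27, limma adjusted p = 0.644).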
